A study of Mus musculus with 16 samples.

Results

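The step from hemogenic endothelium I (HE1) to hemogenic endothelium II (HE2) was examined in Sp1+/+ cells, on 2 arrays of HE1 and 2 arrays of HE2 out of the 16 arrays of the series. The arrays were chosen by their labels, which give genotype and population, and all 4 lay on 1 slide. Both populations came from E14 mouse embryonic stem (ES) cells carrying both wild-type Sp1 alleles, with the strain given as C57BL/6. The cells were differentiated in vitro to Flk1+ cells, which were grown on in blast culture and then sorted on surface markers. HE1 cells were KIT+ TIE2+ CD41-, HE2 cells were KIT+ TIE2+ CD41+, and the later progenitors were KIT+ TIE2- CD41+. The Sp1+/+ Flk1+ and progenitor arrays (2 each, same slide) entered the fit to measure the spread. The Sp1-/- arrays, on another slide, came from ES cells whose Sp1 alleles leave a truncated protein without its DNA-binding domain, and they serve here only as a side-by-side comparison. As a model the 2 populations have limits: 1 ES line, culture in place of an embryo, and gates that define them by 3 surface proteins.

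Hemogenic endothelium is endothelium that gives rise to blood. In the endothelial-to-hematopoietic transition, cells that carry vascular receptors, junctions and a basement membrane switch on blood transcription factors, round up and leave the endothelial layer. CD41, the integrin alpha IIb chain encoded by Itga2b, is among the first blood surface proteins to appear, and in adults it marks megakaryocytes and platelets, where it pairs with the beta 3 chain encoded by Itgb3.

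Expression was measured on Agilent one-color arrays as log2 intensity, called a level here, with 1 probe per gene. On the 4 HE arrays between 67% and 72.4% of spots were well above background, and 0 were saturated. Replicates of HE1 differed by a median standard deviation (SD) of 0.1 over genes, as did those of HE2. One description of the study calls the replicates independent and another calls them technical, so a p-value here measures only the spread between these arrays, and their small number limits the precision. In bulk sorted samples, fewer cells of a type and less RNA per cell cannot be told apart. Sp1 itself stood at 12.39 and 12.42 in HE1 and at 12.14 and 12.48 in HE2, with a log2 difference of -0.1 (adjusted p = 0.793).

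The gate was visible in the RNA. Itga2b stood at 10.61 and 10.6 in HE1 and at 12.21 and 11.95 in HE2, so both HE2 arrays lay above both HE1 arrays. It rose 2.78-fold, a log2 change of 1.48 with a standard error (SE) of 0.3 (adjusted p = 0.0322). Itga2b RNA was already present in the CD41- gate, well above its mean of 7.84 in Flk1+ cells, and it stood at 11.66 in progenitors. The call for Itga2b was narrow: without any 1 of the 4 HE arrays the change stayed between 1.35 and 1.61, but the adjusted p moved to between 0.0694 and 0.162. Kit, the stem cell factor receptor shared by both gates, stood at 12.31 and 11.59 in HE1 and at 13.27 and 12.75 in HE2. Its log2 difference of 1.06 did not pass (adjusted p = 0.182). Tek, which encodes the angiopoietin receptor TIE2, stood at 12.34 and 12.5 in HE1 against 10.52 and 11.45 in HE2, and its difference of -1.44 did not pass either (adjusted p = 0.146).

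For 5 genes whose values are followed below, the gate gene itself, 3 genes of blood cells that rose and 1 arterial gene that fell, the 250 bases before the transcription start are shown (RefSeq, mouse build GRCm38.p6, written 5′ to 3′ on the strand of the gene). Capitals mark the letters of 3 kinds of motif, searched on either strand. For RUNX factors the letters were TGTGGT. For GATA factors they were AGATAA, with the variant TGATAA also searched. For ETS factors they were AGGAAG, and the variant CGGAAG was also searched.
Itga2b, chr11:102469884-102470133, minus strand: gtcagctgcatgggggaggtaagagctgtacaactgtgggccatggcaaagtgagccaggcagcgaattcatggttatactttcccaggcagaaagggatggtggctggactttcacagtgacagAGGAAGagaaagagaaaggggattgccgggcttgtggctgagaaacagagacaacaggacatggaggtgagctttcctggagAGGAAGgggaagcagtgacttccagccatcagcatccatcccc
Gp9, chr6:87777820-87778069, plus strand: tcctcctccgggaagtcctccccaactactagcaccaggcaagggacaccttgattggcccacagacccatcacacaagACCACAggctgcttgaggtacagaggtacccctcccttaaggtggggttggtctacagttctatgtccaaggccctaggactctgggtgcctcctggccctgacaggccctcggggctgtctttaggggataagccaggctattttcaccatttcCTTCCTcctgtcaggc
Gfi1b, chr2:28621983-28622232, minus strand: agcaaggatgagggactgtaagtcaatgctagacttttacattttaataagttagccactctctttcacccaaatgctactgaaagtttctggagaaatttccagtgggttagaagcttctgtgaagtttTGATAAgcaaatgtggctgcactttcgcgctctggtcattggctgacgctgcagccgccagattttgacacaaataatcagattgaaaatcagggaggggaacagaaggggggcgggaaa
Was, chrX:8090492-8090741, minus strand: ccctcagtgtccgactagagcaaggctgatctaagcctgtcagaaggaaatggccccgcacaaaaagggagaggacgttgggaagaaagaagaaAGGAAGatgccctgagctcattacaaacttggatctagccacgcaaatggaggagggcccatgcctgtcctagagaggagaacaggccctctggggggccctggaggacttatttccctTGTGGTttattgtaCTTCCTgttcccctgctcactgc
Hey2, chr10:30842784-30843033, minus strand: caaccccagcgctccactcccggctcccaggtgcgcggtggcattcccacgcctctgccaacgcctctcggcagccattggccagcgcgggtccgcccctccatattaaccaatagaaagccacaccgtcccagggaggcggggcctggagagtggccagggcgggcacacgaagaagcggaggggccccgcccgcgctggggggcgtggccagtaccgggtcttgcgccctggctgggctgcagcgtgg
The Itga2b window held 2 ETS motifs, the Gp9 window 1 RUNX and 1 ETS motif, the Was window 1 RUNX and 2 ETS motifs, and the Gfi1b window 1 GATA motif. In the Hey2 window none of these letters was found. A GC box (GGGCGG) occurred 3 times in the Hey2 window and 1 time in the Gfi1b window. A match describes letters in a window and is not evidence of binding.

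**Figure D1:**
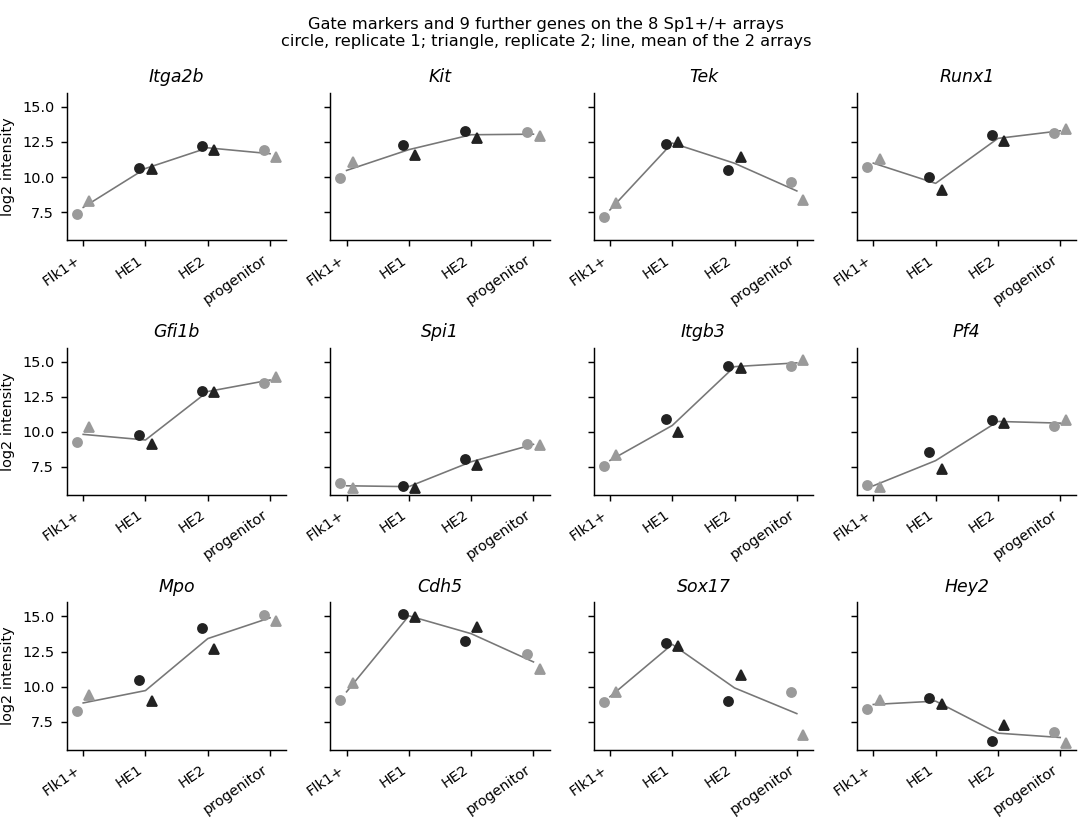
Log2 intensity (vertical axis) of the 3 gate genes and 9 further genes in the 4 Sp1+/+ populations (horizontal axis), with circles for replicate 1, triangles for replicate 2 and a line through the means. Itgb3 climbed from 10.92 and 9.97 in HE1 to 14.71 and 14.56 in HE2, while the HE2 arrays of Sox17 lay far apart, at 9 and 10.83.

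Of 37149 genes tested, 1003 (2.7%) passed an adjusted p of 0.05 or less together with a change of at least 2-fold. Of these, 369 rose in HE2 (0.993% of all genes tested) and 634 fell (1.71%), and the median difference over all genes was 0.02 on the log2 scale. Only 20122 of the genes tested had a gene symbol, as did 314 of the risen and 549 of the fallen genes. The remaining 17027 were array targets without a symbol, whereas every member of the lists below has one. The rises were the larger changes: 90 risen genes moved at least 4-fold and 23 at least 8-fold, against 34 and 0 of the fallen genes. The 2 HE2 arrays lay above both HE1 arrays for 368 of the 369 risen genes, and below both for all 634 fallen genes. Over all genes with a level on every array such a separation occurred upward in 26.2% and downward in 19.6%. The number of calls moved with single arrays. Without HE2 replicate 1 there were 225 higher and 161 lower calls, and without HE2 replicate 2 there were 422 and 881. Without HE1 replicate 1 the counts were 330 and 237, and without HE1 replicate 2 they were 303 and 328. Among the genes of the lists described below, 27 of 50 risen genes passed the test in all 4 of these fits, as did 12 of 66 fallen genes. With all probes of a gene averaged in place of the brightest, 10 of these 116 calls ended (Cdkn2a, Clec14a, Cnn2, Dsp, Il1rl1, Lats2, Loxl2, Tead1, Tgfbr2 and Vcan). The lists and their members were chosen with earlier results of these data known, so their counts are descriptions. For list counts at an unadjusted p under 0.05, or of differences above or below 0, the share over all genes was not taken.

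**Figure D2:**
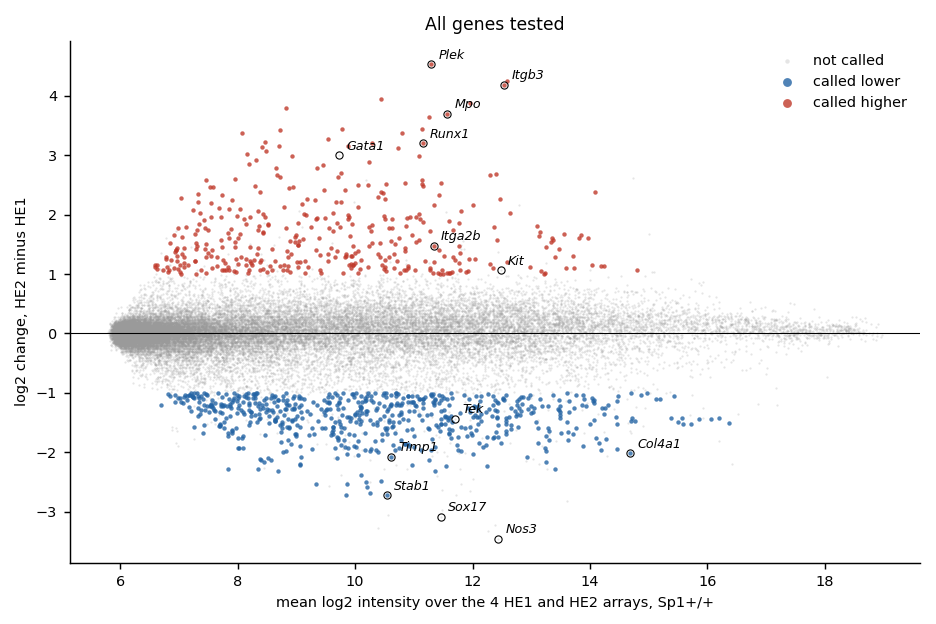
Log2 change from HE1 to HE2 (vertical axis) against the mean log2 intensity over the 4 Sp1+/+ HE arrays (horizontal axis) for the 37149 genes tested, with called rises in red, called falls in blue and 13 genes named. The called rises reach 4.53 (Plek), whereas several of the largest falls, such as Nos3 and Sox17, were not called.

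Transcription factors of blood cells had rises and no falls among their calls. Of 34 measured factors, 10 rose and 0 fell (limma; at an unadjusted p under 0.05, 16 were higher and 3 lower), with a median difference of 0.52. Runx1, required for blood to form from endothelium, stood at 10.03 and 9.08 in HE1 and at 12.96 and 12.54 in HE2. It rose 9.16-fold (log2 change 3.2, SE 0.34, adjusted p = 0.00638). Gfi1b, a repressor of endothelial genes in this transition and a regulator of red cell and platelet lineages, stood at 9.74 and 9.1 in HE1 and at 12.91 and 12.82 in HE2. Its rise was 10.9-fold (adjusted p = 0.00581). Neither gene had overlapping groups, and both were higher in every HE2 array by far more than the gap between replicates.

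The other risen factors covered several blood lineages. Nfe2, a regulator of platelet release, went from 11 and 9.04 to 14.21 and 13.59, a 14.7-fold rise (adjusted p = 0.0168). Myb, needed for definitive progenitors, went from 9.96 and 8.26 to 12.81 and 12.16, a 10.4-fold rise (adjusted p = 0.0187). The lymphoid factor genes Ikzf1 and Ikzf2 rose by 3.03 and 2.47 on the log2 scale by their brightest probes. The second probe of Ikzf1 changed by less, 0.98, and that of Ikzf2 by 2.36. Cebpb, of the myeloid C/EBP family, rose 7.97-fold. Bcl11a, Meis1 and Spi1 made up the rest, with log2 changes of 1.96, 1.26 and 1.77. Spi1, which encodes the myeloid master regulator PU.1, stood close to background in HE1 (6.17 and 6.02) and at 8.09 and 7.65 in HE2, a rise of at least 3.16-fold. Not every factor of this family passed: without HE2 replicate 1 only 5 of the 34 were called higher, and Nfe2, Myb, Ikzf2, Bcl11a and Meis1 were the 5 whose calls ended. The calls of Myb, Meis1 and Bcl11a also ended without HE1 replicate 2, and that of Bcl11a without HE1 replicate 1.

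Other blood factors did not pass the test. Lyl1 stood at 14.55 and 13.79 in HE1 and at 15.99 and 15.72 in HE2, with a difference of 1.68 just outside the threshold (adjusted p = 0.0509). Its relative Tal1 stood at 13.4 and 13.2 against 14.24 and 14.15, and its difference of 0.9 had the same adjusted p = 0.0509. Gata2, Fli1 and Erg, which work with them, had differences of -0.49, -0.47 and 0.04, none of which passed. Gata1, the main erythroid and megakaryocytic GATA factor, stood at 9.57 and 6.89 in HE1 and at 11.29 and 11.17 in HE2. The HE1 replicates of Gata1 lay further apart than those of any other factor named here, and the difference of 3 did not pass (adjusted p = 0.0694).

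Megakaryocyte and platelet genes included the largest called rise, that of Plek. Of 35 measured, 16 rose and 0 fell (at an unadjusted p under 0.05, 21 were higher and 1 lower), with a median difference of 0.76. The 16 include Itga2b, the gate gene itself. Plek, encoding the platelet protein kinase C substrate pleckstrin, stood at 9.65 and 8.41 in HE1 and at 13.71 and 13.42 in HE2. It rose 23.2-fold (log2 change 4.53, SE 0.36, adjusted p = 0.00318). Itgb3, the partner of CD41 in the fibrinogen receptor, rose 18.3-fold (log2 change 4.19, SE 0.36, adjusted p = 0.00386), and so far more than Itga2b itself.

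Further platelet genes stood for separate functions. Coagulation factor F13a1 rose 13.9-fold and the chemokine Pf4, stored in alpha granules, rose 6.92-fold. Gp9 and Gp1ba, chains of the von Willebrand factor receptor, rose by 1.96 and 1.63 on the log2 scale. Gp9 stood at 6.79 and 6.35 in HE1 and at 8.68 and 8.37 in HE2, so its level was low throughout. Ptgs1 and Alox5ap, both of eicosanoid synthesis, rose 5.7-fold and 6.45-fold. Rab27b (granule release), Fermt3 (integrin activation), P2ry1 (the ADP receptor), Treml1, Mmrn1 and Selp rose by between 1.19 and 2.58. Several late platelet genes did not pass. Vwf differed by -0.5, Gp1bb by 0.32, Tubb1 by 0.33 and Gp5 by 0.76. The calls of Pf4 and Gp1ba ended without HE2 replicate 1, and that of P2ry1 ended without HE1 replicate 1 or HE2 replicate 1. Apart from these and Itga2b, the calls of the platelet genes named here held without each HE array in turn.

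Leukocyte and myeloid genes had a similar number of rises. Of 39 measured, 15 rose and 0 fell (at an unadjusted p under 0.05, 25 were higher and 3 lower), with a median difference of 0.55. Mpo, the myeloperoxidase of neutrophil granules, stood at 10.44 and 9.01 in HE1 and at 14.14 and 12.7 in HE2, a 13-fold rise (adjusted p = 0.0202). Much steadier between replicates was Vav1, a Rac exchange factor of blood cells. It stood at 9 and 8.92 in HE1 and at 11.56 and 11.37 in HE2, a 5.68-fold rise (adjusted p = 0.00237). Was, the Wiskott-Aldrich actin regulator, stood at 10.27 and 10.14 against 12.78 and 12.69, and its 5.78-fold rise had an adjusted p = 0.00535. Another actin regulator of blood cells, Coro1a, rose 4.64-fold.

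Signaling adaptors of immune receptors were among the same rises. The adaptor genes Tyrobp and Fcer1g rose 8.91-fold and 5.37-fold. The phosphatase Ptpn6 rose 3.89-fold and the kinase Btk 3.76-fold. Cd52, Laptm5, Hcls1 and Lyz2 rose by 3.08, 2.39, 1.92 and 2.22 on the log2 scale, and Rac2, Ncf1 and Fcgr3 by between 1.07 and 1.16. The defining mature markers were different: Ptprc, the pan-leukocyte antigen CD45, stood at 6.58 and 6.77 in HE1 and at 6.81 and 7.15 in HE2, low in both (adjusted p = 0.564). Csf1r and Itgam, of monocytes and macrophages, had differences of -0.36 and -0.52, which did not pass. Without HE2 replicate 1 the calls of Mpo, Tyrobp, Cd52, Ncf1 and Rac2 ended. That of Mpo also ended without HE1 replicate 2, that of Ncf1 without either HE1 array and that of Rac2 without any 1 of the 4 HE arrays, and the other 10 held in all 4 fits.

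Cytokine receptors split. Of 23 measured, 5 rose and 1 fell, with a median difference of 0.1. None of the 5 rises was called in every fit with 1 HE array left out. The call of Il1rl1 ended without HE1 replicate 1 or HE1 replicate 2, and those of the other rises without HE2 replicate 1. Csf2rb, the beta chain shared by the IL-3, IL-5 and GM-CSF receptors, and Csf2rb2, the beta chain particular to IL-3 in the mouse, rose 6.04-fold and 4.38-fold by their brightest probes. The second probes of both changed by less, 0.87 and 0.92 on the log2 scale. Il6ra rose 3.45-fold, and Il1rl1 rose 2.71-fold from 6.29 and 6.19 to 7.92 and 7.44. Lifr, the leukemia inhibitory factor receptor, fell 3.24-fold, from 13.38 and 13.46 to 11.18 and 12.27, and was not called without HE1 replicate 1 or HE1 replicate 2.

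Red cell genes set the 2 HE1 arrays apart. Of 8 measured globins 0 rose and 0 fell (limma; 1 was higher at an unadjusted p under 0.05), although their median difference was 1.86. The embryonic alpha globin Hba-x stood at 13.49 and 7.55 in HE1 and at 14.06 and 11.08 in HE2. Its embryonic beta partner Hbb-bh1 stood at 15.62 and 11.22 in HE1 and at 16.59 and 15.47 in HE2. For Hba-x HE1 replicate 1 lay above HE2 replicate 2, and for Hbb-bh1 the groups overlapped in the same way. With 1 HE array left out at a time the median globin difference ranged from -0.14 to 3.97, and without HE1 replicate 1 the difference of Hbb-bh1 was 4.81 and passed (adjusted p = 0.0432). The mean globin level was 11.77 on HE1 replicate 1, 8.04 on HE1 replicate 2, 12.6 on HE2 replicate 1 and 10.81 on HE2 replicate 2, against 13.32 and 15.01 in progenitors. HE1 replicate 1 therefore held more globin RNA than HE1 replicate 2. It was the higher HE1 array for 288 of the 369 risen genes, and HE2 replicate 1 was the higher HE2 array for 304 of them. For the 634 fallen genes these counts were 313 and 63, and the share over all genes was not taken. The part of red cell RNA in the rises was not tested.

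Among 28 other erythroid genes 3 rose and 1 fell. Gypc, a membrane skeleton anchor, rose 3.12-fold and the carbonic anhydrase gene Car2 rose 2.73-fold, and Gfi1b was the third. Cd24a, a surface protein of many immature cells, fell 3.96-fold, from 14.13 and 14.36 to 11.93 and 12.59. Without HE1 replicate 1 the calls of Car2 and Gypc ended, that of Gypc also without HE1 replicate 2 or HE2 replicate 1, and that of Cd24a held in each such fit. Klf1, the erythroid activator of the globins, stood at 8.34 and 6.48 in HE1 and at 9.12 and 7.98 in HE2, and its difference of 1.14 did not pass. Of 9 heme synthesis enzymes 0 were called (limma; 3 were higher and 1 lower at an unadjusted p under 0.05).

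**Figure D3:**
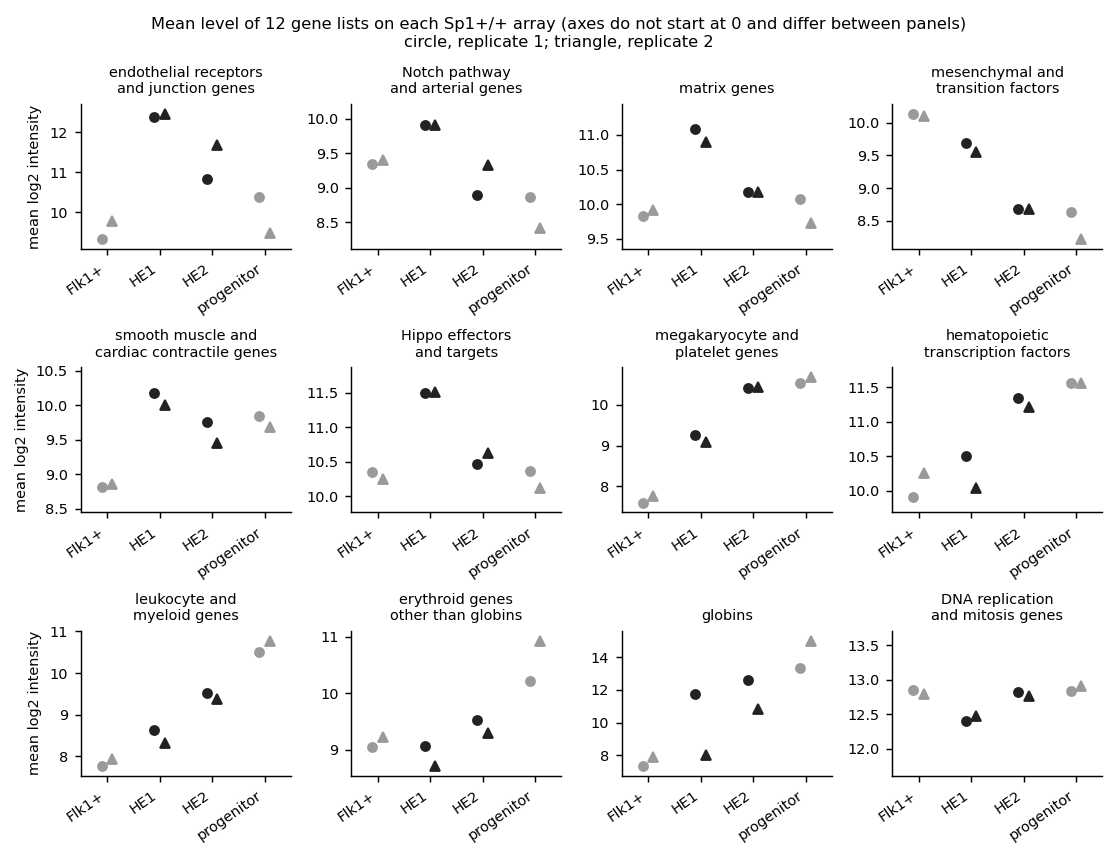
Mean log2 intensity (vertical axis, one scale per panel, not from 0) of 12 gene lists on each of the 8 Sp1+/+ arrays by population (horizontal axis). The 2 HE1 arrays differ most in the globins (11.77 and 8.04), and the 2 HE2 arrays differ in the endothelial list (10.84 and 11.67).

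Endothelial receptors and junction genes had mostly lower levels in HE2, and the 2 HE2 arrays lay apart. Of 44 measured, 9 fell and 1 rose, and the median difference was -1.23. The mean level of the list was 12.37 and 12.46 on the HE1 arrays but 10.84 and 11.67 on the HE2 arrays. HE2 replicate 2 thus lay between HE1 and HE2 replicate 1. Among the 634 fallen genes HE2 replicate 1 was above replicate 2 in 63, and the median gap between the replicates was -0.45. The count of lower endothelial calls followed the arrays: it was 1 without HE1 replicate 1, 4 without HE1 replicate 2, 0 without HE2 replicate 1 and 15 without HE2 replicate 2, although 29 genes were lower at an unadjusted p under 0.05.

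Stab1, a scavenger receptor of endothelium, stood at 11.77 and 12.04 in HE1 and at 8.22 and 10.13 in HE2. It fell 6.63-fold (log2 change -2.73, SE 0.65, adjusted p = 0.0493), the largest fall among the called genes with a symbol, and the call held only without HE2 replicate 2. Tjp1, Ocln and Cgnl1, of tight junctions, fell 3.59-fold, 2.95-fold and 2.51-fold. The vascular co-receptors Nrp1 and Nrp2 fell 3.2-fold and 2.66-fold. Clec14a, Cav1 (caveolae) and S1pr1 (the sphingosine 1-phosphate receptor) fell by 1.32, 1.23 and 1.09 on the log2 scale. Lyve1, a hyaluronan receptor of lymphatic and yolk sac endothelium, was the member that rose, 2.08-fold, and its call ended without any 1 of the 4 HE arrays.

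Some larger differences did not pass, and their HE2 arrays lay far apart. Nos3, the endothelial nitric oxide synthase, stood at 14.26 and 14.07 in HE1 and at 9.72 and 11.7 in HE2, a difference of -3.46 (SE 0.92, adjusted p = 0.0679). Cdh5, the VE-cadherin of endothelial junctions, stood at 15.16 and 14.93 against 13.27 and 14.26, a difference of -1.28 (adjusted p = 0.205). Pecam1 differed by -0.88 and Cd34 by 0.86. For Kdr, the VEGF receptor 2 gene, the brightest probe stood at 13.74 and 14.06 in HE1 and at 13.99 and 13.73 in HE2. Its difference was -0.04, whereas another Kdr probe above background gave -1.25. In HE2 Cdh5 was thus still above its Flk1+ mean of 9.63 on both arrays.

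Arterial and Notch genes gave the same picture on a smaller scale. Of 28 measured, 6 fell and 1 rose, with a median difference of -0.64. Hey2, an arterial repressor induced by Notch, stood at 9.16 and 8.79 in HE1 and at 6.12 and 7.25 in HE2, and fell 4.89-fold (adjusted p = 0.0228). The guidance receptor Unc5b and the arterial ligand Efnb2 fell 4.84-fold and 4.41-fold, and the vein regulator Nr2f2 fell 2.3-fold. The other Efnb2 probe above background changed by less, -0.84 on the log2 scale. The receptor Notch3 and the ligand Dll4 fell by 1.13 and 1.07 on the log2 scale. Lower calls numbered 0 without HE1 replicate 1, 1 without HE2 replicate 1, 0 without HE1 replicate 2 and 9 without HE2 replicate 2. Sox17, which drives arterial identity, stood at 13.14 and 12.88 in HE1 and at 9 and 10.83 in HE2, and its difference of -3.09 did not pass (adjusted p = 0.114). Notch1 and Hey1 had differences of -0.38 and 0.01.

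One Notch gene went the other way. Mfng, a glycosyltransferase that modifies Notch receptors, stood at 10.08 and 9.76 in HE1 and at 12.35 and 12.46 in HE2. It rose 5.6-fold (log2 change 2.48, SE 0.13, adjusted p = 0.00193) and was called without each of the 4 HE arrays in turn. In Flk1+ cells its mean was 7.46.

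Among matrix genes every call was a fall. Of 53 measured, 15 fell and 0 rose (1 was higher at an unadjusted p under 0.05), with a median difference of -0.74 and 45 members below 0. Nid1, which links laminin to collagen IV in basement membranes, stood at 14.21 and 14.43 in HE1 and at 11.5 and 12.83 in HE2, and fell 4.45-fold (adjusted p = 0.0206). Col4a1, the main basement membrane collagen chain, stood at 15.47 and 15.92 against 13 and 14.34 and fell 4.06-fold (adjusted p = 0.0448). The metalloproteinase inhibitor Timp1 stood at 11.58 and 11.72 against 9.42 and 9.72. Its 4.23-fold fall (adjusted p = 0.00325) was called without each HE array in turn. Perlecan (Hspg2), laminin chains Lama4 and Lamb1, fibulins Fbln1 and Fbln2, tenascin (Tnc), Loxl2, Serpinh1 and Vcan fell by between 1.03 and 1.66 on the log2 scale. The matricellular genes Ccn1 and Ccn2 were also among the 15. Lower matrix calls numbered 6 without HE1 replicate 1, 6 without HE2 replicate 1, 6 without HE1 replicate 2 and 17 without HE2 replicate 2.

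Integrins, the receptors for these matrix proteins, moved in both directions. Of 23 measured, Itgb3 and the gate gene Itga2b rose and Itga3, Itga5 and Itga7 fell. The last 3 pair with the beta 1 chain and bind laminin or fibronectin. Itga5 stood at 10.83 and 10.62 in HE1 and at 9.47 and 9.87 in HE2, a 2.08-fold fall (adjusted p = 0.0189). Itga3 and Itga7 fell 2.45-fold and 2.21-fold. Itga4, expressed on blood cells, stood at 9.17 and 8.52 against 10.75 and 10, and its difference of 1.53 did not pass (adjusted p = 0.0595). Lower integrin calls numbered 2 without HE1 replicate 1, 1 without HE1 replicate 2, 0 without HE2 replicate 1 and 5 without HE2 replicate 2, and Itga2b was not called higher in any of these fits.

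Among Hippo pathway effectors and targets, too, every call was a fall. In this pathway the coactivators YAP and TAZ, encoded by Yap1 and Wwtr1, act through TEAD factors on genes of adhesion and spreading. Of 20 measured, 9 fell and 0 rose (0 were higher at an unadjusted p under 0.05), all 20 differences were below 0, and the median was -0.98. Tead1 stood at 12.43 and 12.34 in HE1 and at 10.85 and 10.95 in HE2, and fell 2.8-fold (log2 change -1.49, SE 0.14, adjusted p = 0.00486). The other 2 Tead1 probes above background changed by -0.75 and -0.64, and with the probes averaged the change of -0.96 was under 2-fold and not called. Yap1 and Wwtr1 both fell 2.35-fold. Their targets Ccn1, Ccn2 and Ankrd1 fell 2.66-fold, 3.2-fold and 2.99-fold. Fstl1, the kinase gene Lats2 and Amotl1 fell by 1.78, 1.22 and 1.16 on the log2 scale. Calls for Tead1 and Ccn1 held without each HE array, while the list's count was 5 without HE1 replicate 1, 3 without HE2 replicate 1, 4 without HE1 replicate 2 and 11 without HE2 replicate 2.

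Mesenchymal and cardiac transcription factors were lower too. Of 29 measured, 11 fell and 0 rose (0 were higher at an unadjusted p under 0.05), with a median difference of -0.94. Nkx2-5, a cardiac homeobox gene, stood at 11.36 and 12 in HE1 and at 8.62 and 9.76 in HE2, a 5.62-fold fall (adjusted p = 0.0219). Hand1, of lateral mesoderm, stood at 12.12 and 11.8 against 10.29 and 9.82, a 3.75-fold fall (adjusted p = 0.00673). Gata4, Gata6, Tbx20 and Foxc2, of heart and vessel mesoderm, fell by 1.97, 1.67, 1.7 and 2.28 on the log2 scale. Snai1, Zeb1, Twist1 and Cdh2, which mark mesenchymal transitions, fell by between 1.16 and 1.42, and Prrx2 by 1.07. The list had 2 lower calls without HE1 replicate 1, 1 without HE2 replicate 1, 3 without HE1 replicate 2 and 6 without HE2 replicate 2, and of its falls only that of Hand1 was called in all 4 of these fits.

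Markers of other cell types were measured beside the falls, in populations that were both sorted for KIT and TIE2. Of 30 smooth muscle and cardiac contractile genes, 3 fell (Cald1, Nexn and Cnn2, by 1.57, 1.56 and 1.09 on the log2 scale) and 0 rose (1 was higher at an unadjusted p under 0.05), and the median difference was -0.4. The mean level of that list was 10.18 and 10 in HE1 and 9.76 and 9.46 in HE2. Acta2, smooth muscle actin, stood at 17.6 and 16.79 in HE1 and at 16.57 and 15.09 in HE2, among the brightest levels named here (adjusted p = 0.175). Acta2 RNA was thus abundant in both gates, and 26 of the 30 list genes were above background on both arrays of at least 1 gate. The part of contractile cells in the falls of matrix and mesenchymal genes was not tested. The count of 3 was 3 without HE1 replicate 1, 2 without HE2 replicate 1, 1 without HE1 replicate 2 and 4 without HE2 replicate 2. Of 22 epithelial and endodermal genes, Dsp (desmoplakin) fell 2.37-fold, a call that held only without HE2 replicate 1. The keratin gene Krt18 stood at 15.78 and 14.21 in HE1 and at 15.21 and 13.21 in HE2. Among 15 pluripotency and 15 primitive streak genes 0 were called in either direction (limma; at an unadjusted p under 0.05, 2 and 3 were lower).

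In the TGF-beta and BMP pathway 6 of 39 genes fell and 0 rose (2 were higher at an unadjusted p under 0.05), with a median difference of -0.33. Smad7, the inhibitory SMAD that this pathway induces, stood at 11.8 and 11.78 in HE1 and at 10.12 and 9.73 in HE2. It fell 3.64-fold (log2 change -1.86, SE 0.14, adjusted p = 0.00297). The ligand Tgfb2 stood at 12.16 and 12.35 against 10.7 and 10.54 and fell 3.11-fold (adjusted p = 0.00297). The receptors Acvr1 and Tgfbr2 fell by 1.62 and 1.14, and the BMP targets Id1 and Id4 by 1.25 and 1.26 on the log2 scale. Smad7, Tgfb2 and Id4 were called without each HE array in turn. The list had 3 lower calls without HE1 replicate 1, 3 without HE1 replicate 2, 4 without HE2 replicate 1 and 8 without HE2 replicate 2.

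Stress-responsive genes, which can respond to cell dissociation, were checked as well. Of 22 immediate early and heat shock genes, 3 fell and 0 rose (1 was higher at an unadjusted p under 0.05). Atf3 fell 3.92-fold, from 12.57 and 12.9 to 10.01 and 11.52. The small heat shock protein gene Hspb1 and the phosphatase gene Dusp1 fell 2.78-fold and 2.27-fold. Without HE1 replicate 1 none of the 3 was called (limma), without HE2 replicate 1 there was 1 call, and without HE1 replicate 2 there were 2 calls. Fos, the classic early gene, had a difference of -0.97 (adjusted p = 0.209).

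DNA replication and mitosis genes differed by a small amount in 1 direction. Of 50 measured, 48 were higher in HE2, with a median difference of 0.33 and a highest of 0.9, against a median of 0.02 over all genes. None was called, since none reached 2-fold (limma; 33 were higher and 0 lower at an unadjusted p under 0.05, and 11 passed the adjusted p alone). Over all 37149 genes, 1744 higher genes passed the adjusted p with no fold limit. The shares of all genes that were higher in HE2, or higher at an unadjusted p under 0.05, were not taken. Mcm10, a replication fork protein, stood at 12.3 and 12.33 in HE1 and at 13.22 and 13.13 in HE2, a difference of 0.86 (SE 0.09, adjusted p = 0.00567). Pola1, the catalytic chain of DNA polymerase alpha, differed by 0.7 (adjusted p = 0.0138). Mki67, the Ki-67 antigen, differed by 0.13 (adjusted p = 0.595). Among 15 D cyclins and cell cycle inhibitors 1 was called, Cdkn2a, which encodes p16 and p19. It stood at 11.23 and 11.02 in HE1 and at 12.08 and 12.24 in HE2, a 2.05-fold rise (adjusted p = 0.00786), not called without HE1 replicate 2 or HE2 replicate 2. Its other probe above background changed by 0.4, and with the probes averaged the change of 0.71 was not called. Housekeeping genes had a median difference of -0.01 over 15 members.

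**Figure D4:**
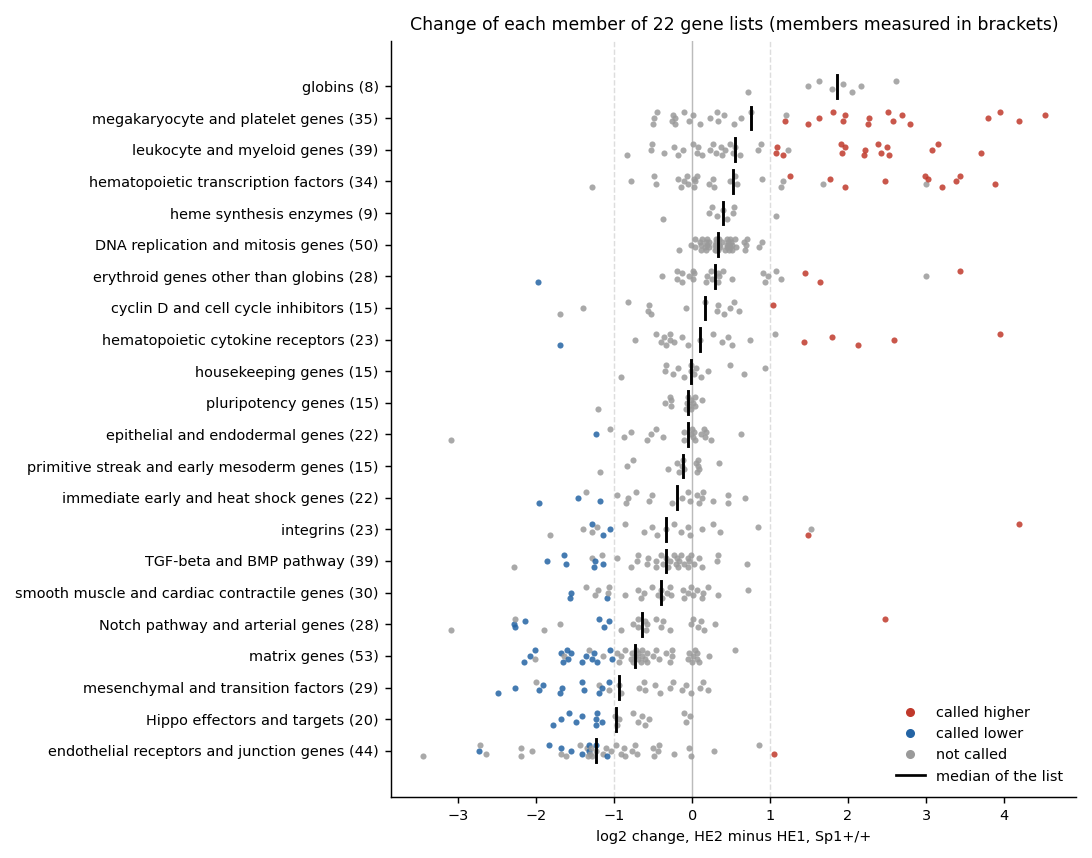
Log2 change from HE1 to HE2 (horizontal axis) of each measured member of 22 gene lists (vertical axis, ordered by median), with called rises in red, called falls in blue, other members in grey and the list median as a black bar. Most called rises lie in the blood lists, up to 4.53, and most called falls in the endothelial, Hippo, mesenchymal and matrix lists, down to -2.73. Exceptions include the rises of Mfng, Lyve1 and Cdkn2a and the falls of Cd24a and Lifr. No globin was called, at a median of 1.86.

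Outside these lists, Adgrg1 had the largest called rise among genes with a symbol. This gene, which encodes the adhesion receptor GPR56 of blood progenitors, stood at 11.56 and 9.38 in HE1 and at 15.08 and 14.36 in HE2, a 19-fold rise (adjusted p = 0.0141). P2rx1, the ATP-gated channel of platelets, rose 12.6-fold. Cst7, a cysteine protease inhibitor of immune cells, rose from 6.5 and 6.29 to 9.97 and 9.57, a 10.4-fold rise with the smallest adjusted p of the genes named here (0.00132). Lilrb4a, an inhibitory leukocyte receptor, Capn3, a calpain, and Dapp1, an adaptor of lymphocyte signaling, rose 9.61-fold, 9.35-fold and 9.22-fold. Of these, the calls for P2rx1, Cst7, Lilrb4a, Capn3 and Dapp1 held without each HE array, and that for Adgrg1 ended without HE2 replicate 1.

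The largest falls outside the lists were more mixed. Prss12, a serine protease, stood at 11.11 and 11.28 in HE1 and at 7.59 and 9.37 in HE2, a 6.57-fold fall (adjusted p = 0.0389). Ccdc80, a matrix-associated protein, fell 6.43-fold (adjusted p = 0.0113), and Tcf7l1, a repressor in Wnt signaling, fell 6.02-fold (adjusted p = 0.0108). Kctd12b, Gpm6a and Kdelr3 fell by 2.54, 2.54 and 2.39 on the log2 scale. Hoxb7, of the body axis clusters, fell by 2.32. Fmo1, a flavin monooxygenase, and the imprinted gene Peg3 fell 4.99-fold and 4.72-fold. Without HE1 replicate 1 none of these falls was called, and without HE2 replicate 1 that of Tcf7l1 held.

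Levels in the stages before and after were also measured. The comparisons of HE1 with Flk1+ cells and of progenitors with HE2 share arrays with this one, so only their own values are given. Runx1 had a mean of 10.99 in Flk1+ cells, fell by 1.43 on the log2 scale into HE1 (adjusted p = 0.0204), and stood at 13.29 in progenitors. Plek had a mean of 6.39 in Flk1+ cells and 14.62 in progenitors. Cdh5 had a mean of 11.76 in progenitors, and its difference of -2.01 from HE2 did not pass (adjusted p = 0.138).

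The Sp1-/- arrays gave the same step on their own slide, with other samples. Of the 369 genes that rose in Sp1+/+ cells, 365 (98.9%) also had a positive difference in Sp1-/- cells and 304 (82.4%) were called higher there, against 2.07% of all genes. Of the 634 that fell, 632 (99.7%) had a negative difference and 533 (84.1%) were called lower, against 3.51% of all genes. No gene was called in opposite directions in the 2 genotypes. The calls shared by both genotypes made up 39.5% of the 770 rises and 40.8% of the 1305 falls in Sp1-/- cells. Among the list genes called in Sp1+/+ cells, 47 of 50 rises and 57 of 66 falls were also called in Sp1-/- cells. Nos3, Sox17, Cdh5 and Gata1 differed in Sp1-/- cells by -4.51, -4.09, -1.59 and 4.91 and were called there. The Sp1-/- calls came from the fit to all 16 arrays, whereas the 369 and 634 Sp1+/+ calls came from the fit to the 8 Sp1+/+ arrays. The shares above therefore set unlike fits side by side. With all 16 arrays fitted, Sp1+/+ cells had 391 higher and 798 lower calls. In that fit Nos3, Sox17 and Gata1 were also called in Sp1+/+ cells (limma; adjusted p = 0.0112, 0.0297 and 0.0122), while Cdh5 was not (adjusted p = 0.0947). A test of the difference between the 2 changes called 36 genes (0.0969%). The genotype effect and the slide cannot be told apart for levels, but each step lies within 1 slide.

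**Figure D5:**
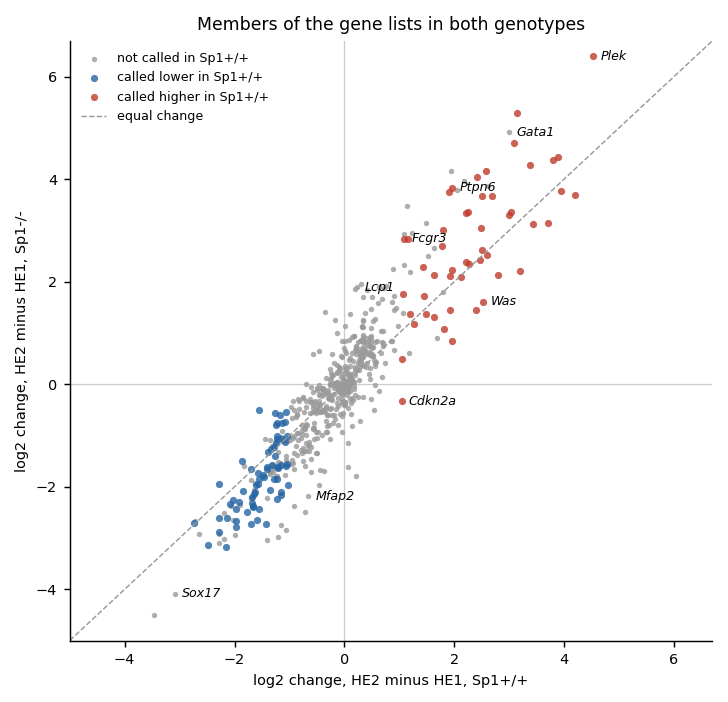
Log2 change from HE1 to HE2 in Sp1-/- cells (vertical axis) against that in Sp1+/+ cells (horizontal axis) for the 579 list members, colored by their call in Sp1+/+ cells, with a dashed line for equal change. Called genes lie on the same side of 0 in both genotypes except Cdkn2a, at 1.04 in Sp1+/+ and -0.33 in Sp1-/- cells.

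Promoter windows of the called genes were searched for 8 motifs of 6 letters on both strands, in the 250 bases before and 50 after the start, and the shares are given as a description. A window was at hand for 248 of the 369 risen genes, 414 of the 634 fallen genes and 15961 of all genes tested. The RUNX motif (TGTGGT) occurred in 19.4% of windows of risen genes, 11.1% of those of fallen genes and 14.3% of all windows. Of the 2 GATA forms, AGATAA occurred in 10.9%, 6.04% and 9.64%, and TGATAA in 10.5%, 3.38% and 6.94%. The ETS form AGGAAG occurred in 43.5%, 28.7% and 33.5%, and the form CGGAAG, which shares its last 5 letters, in 15.7%, 11.8% and 22.7%. The GC box (GGGCGG), the letters that Sp1 family proteins bind, occurred in 52% of windows of risen genes, 75.4% of those of fallen genes and 49.6% of all windows. Shares for the SOX motif (ACAATG) were 7.66%, 5.56% and 10.4%, and those for the TEAD motif (GGAATG) were 10.1%, 11.6% and 13.1%. The Itga2b, Gp9, Gfi1b and Was windows printed above each held at least 1 of the GATA, RUNX or ETS motifs, and the Hey2 window held the GC box, as the Gfi1b window did, and the TEAD motif. These 5 windows were picked, and the share of all windows with at least 1 of those motifs was not taken. They cannot show a contrast between risen and fallen genes.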

How the data were processed

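RNA was labeled with Cy3 and hybridized to Agilent one-color mouse arrays. The deposited log2 values were made by the authors with limma (a normexp background correction and quantile normalization). Recomputed from the deposited median intensities, they matched an offset of 50 to within 0.0258, against up to 1.63 for the offset of 16 that the methods state. This offset compresses the changes of dim genes. The file headers name Feature Extraction 10.7.3.1, the submitters' notes 10.7.1.1.

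The brightest of a gene's probes (highest mean over the 16 arrays) was used, from probes at log2 6 or more on at least 1 array. Of 37932 target names, 20869 were matched to a mouse symbol by RefSeq accession and 12 by symbol or synonym. limma 3.58.1 (R 4.3.3) was fitted to the 8 Sp1+/+ arrays with 1 coefficient for each of 4 populations, leaving 4 residual degrees of freedom, or 6.85 after moderation. HE2 minus HE1 was called at a Benjamini-Hochberg adjusted p of 0.05 or less over all genes tested and a change of at least 2-fold, in place of the methods' unadjusted p of 0.01. The step in Sp1-/- cells and its difference from Sp1+/+ cells came from 1 fit to all 16 arrays. A bound ("at least") sets the bright group against the dimmest signal well above background. The deposited processed signal intensities served as an alternative scaling. Other alternatives were the offset, the filter, the probes averaged, the arrays fitted and each array left out. Scripts were tested on simulated data, and figures were drawn with matplotlib 3.10.9 (Python 3.11.15).

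The genes named were a list of core genes, the 15 called genes with a symbol that rose most and the 15 that fell most without overlap, and the 4 called members of each list that moved most. Some genes that this rule takes are not reported here. Further list members were named with their values. The members and lists were chosen with earlier results of these data known.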

Additional observations from a re-analysis of the deposited data

Results flagged for a closer look

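The difference between genotypes in the HE1 to HE2 change was tested in all 16 arrays (limma), and 36 of 37149 genes passed (0.0969%). Among them were 9 genes of the lists. The count is unsteady: with only the 8 HE arrays fitted it was 0 (404 genes at an unadjusted p under 0.05 and 2-fold, against 456 with 16 arrays), and without Sp1-/- HE1 replicate 1 it was 405. It was 83 without Sp1+/+ HE1 replicate 1, 81 without Sp1+/+ HE2 replicate 1, 60 without Sp1-/- HE2 replicate 1, 22 without Sp1-/- HE2 replicate 2, 17 without Sp1+/+ HE2 replicate 2 and 16 without Sp1-/- HE1 replicate 2.

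In 7 of the 9 the change was more positive in Sp1-/- cells. Ptpn6 rose by 1.96 in Sp1+/+ and by 3.83 in Sp1-/- cells, a difference of 1.87 (adjusted p = 0.0301). Btk rose by 1.91 and 3.75, a difference of 1.84 (adjusted p = 0.0393). For Fcgr3 the changes were 1.09 and 2.84 and the difference was 1.75 (adjusted p = 0.00721). Ncf1, of the phagocyte oxidase, differed by 1.68 (adjusted p = 0.0301), Lcp1, an actin bundler of leukocytes, by 1.67 (adjusted p = 0.00721), Mmrn1, a platelet granule protein, by 1.58 (adjusted p = 0.0315) and the kinase Syk by 1.38 (adjusted p = 0.0346).

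Mfap2, a microfibril protein, stood at 9.02 and 8.76 in Sp1+/+ HE1 but at 11.11 and 10.9 in Sp1-/- HE1, and the difference between the changes was -1.53 (adjusted p = 0.00721). Cdkn2a rose by 1.04 in Sp1+/+ cells and differed by -0.33 in Sp1-/- cells, where it stood at 11.65 and 11.69 in HE1 and at 11.39 and 11.29 in HE2. The difference between the changes was -1.36 (adjusted p = 0.0152). These values are from its brightest probe, and the other Cdkn2a probe above background changed by 0.4 in Sp1+/+ cells.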

How the results depend on the processing

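None of the 1003 calls changed sign under any alternative run (1 had no value without HE2 replicate 2). In many of these runs the sign could not change. Other thresholds, other arrays in the fit and the replicate block leave the difference between the group means as it was. Leaving out 1 array cannot reverse it where the groups do not overlap, as for 368 of the 369 risen and all 634 fallen genes. Against 369 higher and 634 lower calls, the counts were 219 and 182 with only the 4 HE arrays fitted, 188 and 116 at an adjusted p of 0.01, and 1744 and 1524 with no fold limit. The processed signal scaled to each array's 75th percentile gave 574 higher calls, and 53.1% of its calls were lower, against 63.2% in the deposited values. Leaving out 1 of the 8 arrays at a time gave 225 to 422 higher and 161 to 881 lower calls. The 36 differences between genotypes became 19 with an offset of 16, 10 with the processed signal, 0 with only the 8 HE arrays (limma; 404 at an unadjusted p under 0.05 and 2-fold), 275 at an unadjusted p of 0.01, 5 at an adjusted p of 0.01, and 16 to 405 with 1 HE array left out. Where an array is left out, the lone sample is assumed to vary like the other groups. Of 77 called genes that the naming rule takes, 66 were also called with an offset of 16, 54 with the processed signal, 33 with only the 4 HE arrays and 32 without HE2 replicate 1. The lists most moved by the processed signal were the endothelial (4 lower calls), matrix (8) and mesenchymal (6) lists. The cause was not tested.

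The labels number the replicates 1 and 2 without saying that a number marks a shared culture. Over 37122 genes the replicate differences of HE1 and HE2 correlated with r = 0.5, but the number was shared by 2 pairs only and other populations did not follow it (r between -0.15 and 0.12). With the replicate block the counts were 366 higher, 606 lower and 27 differences between genotypes, and 932 of the 1003 calls were shared (92.9%). Signal over background limits dim genes such as Spi1, for which a bound is given.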

Other observations

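Gene families outside the lists were picked by symbol after their values were seen and are given as values only. Among 12 annexins, calcium-dependent membrane binders, Anxa2, Anxa3, Anxa5 and Anxa6 fell. Anxa2 was among the brightest genes named, at 16.07 and 16.09 in HE1 and at 14.52 and 14.81 in HE2, a fall of 1.42 (SE 0.13, adjusted p = 0.005). The other 3 fell by 1.78, 1.97 and 1.94 on the log2 scale.

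Among 20 regulators of G protein signaling, Rgs10, Rgs14 and Rgs18 rose by 2.17, 1.03 and 2.08 and Rgs3 fell by 1.54. Of 9 protein kinase C genes, Prkca, Prkcd and Prkcq rose by 2.88, 1.55 and 1.75. Prkca stood at 9.16 and 8.43 in HE1 and at 11.73 and 11.62 in HE2. Of 20 CC chemokines, Ccl3, Ccl6 and Ccl9 rose by 2.19, 2.24 and 2.78, from levels between 6.02 and 9.12 in HE1. All of these called genes had the same direction in Sp1-/- cells.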
